A study of Homo sapiens with 12 samples.

Results

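The BCL2 family decides whether the outer mitochondrial membrane is opened during apoptosis, and 10 of its genes were taken by symbol from the 20332 genes of the deposited expression tables: BCL2, BCL2L1, MCL1, BAX, BAK1, BID, BBC3, PMAIP1, BCL2L11 and BMF. All 10 were found and all 10 passed the filter on low counts in every comparison. Their transcripts were measured by bulk RNA sequencing in 12 libraries of Ishikawa and KLE cells, established human endometrial cancer lines. Each line was left untreated or kept in 200 µM CuCl2 for 24 h, a copper overload, with 3 biological replicates prepared independently for each of the 4 groups. The control cells are labelled both untreated and vehicle, and no agent other than CuCl2 is named. No experimental change to a gene is labelled in either line, and the genotypes of the lines are not given in the labels. Each line was sampled at 1 dose and 1 time, and protein was not measured.

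The family works through binding between its members. Pro-survival proteins (BCL2, BCL-XL from BCL2L1, and MCL1) hold the effectors BAX and BAK1 in check, and the effectors, once activated, form pores in the mitochondrial outer membrane that release cytochrome c. BH3-only proteins sense damage or stress and either block the pro-survival proteins or activate the effectors. BIM (BCL2L11), PUMA (BBC3) and cleaved BID engage both sides, whereas NOXA (PMAIP1) binds chiefly MCL1 and BMF links the cytoskeleton to the pathway. MCL1 and NOXA are short-lived proteins that are also set by ubiquitination, so their transcript levels need not follow their protein levels.

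Libraries held 14050275 to 25057003 counts. The second untreated Ishikawa library was the deepest and stood apart from its group: the chi-square of counts per degree of freedom was 8.45 and 12.9 against the other 2 controls, and 2.05 to 3.95 within all other same-group pairs. The epithelial markers EPCAM, KRT8, KRT18, KRT19 and CDH1 were present in both lines, and so was PAX8 of Müllerian epithelium (228 to 455 TPM in all libraries). ESR1 (at most 0.51 TPM), PGR (at most 0.284 TPM) and FOXA2 (at most 0.105 TPM) were at or near 0. The summed TPM (transcript abundance scaled to transcript length and library total) of the 5 epithelial markers went from 3160–3570 to 2230–2360 with copper in Ishikawa cells and from 4680–4930 to 5510–5570 in KLE cells. The KLE rise was in KRT8, KRT18 and KRT19, while EPCAM (1033–1044 to 980–1006 TPM) and CDH1 (192–202 to 173–188 TPM) were lower. The 5 endometrial or Müllerian markers summed to 442–501 and 244–259 TPM in untreated and treated Ishikawa cells and to 437–476 and 362–372 TPM in KLE cells. All 6 stromal markers summed to between 6.82 and 50.8 TPM, and all 4 endothelial markers to at most 4.04 TPM. The 5 leukocyte markers summed to 6.97–8.04 and 8.49–11.7 TPM in untreated and treated Ishikawa cells and to 19.0–22.2 and 28.1–35.9 TPM in KLE cells, mostly CD68, while PTPRC stayed at or below 1.28 TPM. Mitochondrially encoded genes took 4.05 to 4.72% of counts in treated KLE libraries and 5.91 to 7.21% in the other 9. The part of these shifts in the results below was not tested. In bulk RNA, fewer cells with a transcript and less of it per cell cannot be told apart.

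Promoter sequences are shown for the 4 genes whose transcripts were called in the same direction in both lines, since these are the members that moved together with copper. Each is the 250 bases before a transcription start, 5′ to 3′ on the strand of the gene, from RefSeq on GRCh38.p14. They are chr20:31723964-31724213 (minus strand) for BCL2L1, chr18:59899746-59899995 (plus strand) for PMAIP1, chr2:111120664-111120913 (plus strand) for BCL2L11 and chr15:40108880-40109129 (minus strand) for BMF. BCL2L1 and BMF each have a second annotated start that is not printed. Capitals mark matches, on either strand, to the motifs described next.
BCL2L1: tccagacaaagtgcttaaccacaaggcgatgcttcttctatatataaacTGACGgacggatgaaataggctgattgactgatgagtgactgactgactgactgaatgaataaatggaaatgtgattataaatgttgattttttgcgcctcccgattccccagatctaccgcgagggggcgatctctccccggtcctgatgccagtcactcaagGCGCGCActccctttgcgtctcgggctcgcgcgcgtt
PMAIP1: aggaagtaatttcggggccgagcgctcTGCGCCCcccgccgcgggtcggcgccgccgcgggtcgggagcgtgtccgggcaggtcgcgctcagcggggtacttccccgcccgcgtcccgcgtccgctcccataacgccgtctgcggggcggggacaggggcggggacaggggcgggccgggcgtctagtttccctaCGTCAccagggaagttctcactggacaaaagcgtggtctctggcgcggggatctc
BCL2L11: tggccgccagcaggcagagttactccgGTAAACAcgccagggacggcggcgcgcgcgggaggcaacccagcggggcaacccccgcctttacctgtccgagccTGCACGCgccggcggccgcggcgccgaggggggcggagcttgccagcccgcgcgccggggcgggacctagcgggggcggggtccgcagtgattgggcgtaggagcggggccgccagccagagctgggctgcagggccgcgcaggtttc
BMF: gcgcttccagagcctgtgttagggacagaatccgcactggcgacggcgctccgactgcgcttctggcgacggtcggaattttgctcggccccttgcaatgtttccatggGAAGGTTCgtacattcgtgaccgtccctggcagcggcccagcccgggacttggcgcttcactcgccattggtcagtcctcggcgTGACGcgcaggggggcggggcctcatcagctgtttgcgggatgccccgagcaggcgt

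The motifs were those of factors that respond to metal, oxidants, heat or endoplasmic reticulum stress, plus the cAMP response element and a forkhead site. They were searched on both strands of 300-base windows that end 50 bases after each start. There were 15 windows for 9 of the 10 members. MCL1 had no window, so it was not searched for any motif. The metal response element core bound by MTF1 (TGCACNC or TGCGCNC) was found in windows of BCL2, BCL2L1, BID, PMAIP1 and BCL2L11, that is in 6 of 15 member windows, and in 29.6% of all 35116 windows. It lies at -37 in the BCL2L1 window, -223 in PMAIP1 and -148 in BCL2L11, counted from the start as 0. The antioxidant response element (TGACNNNGC) was found in BCL2L1, where it begins at position 16 and so beyond the printed bases, and in BAX, against 13.3% of all windows. The heat shock element (GAANNTTC) was found in BMF at -141 and in BAK1, against 6.77% of all windows. No member window held the C/EBP-ATF element (TGATGNAA, 3.62% of all) or the full cAMP response element (TGACGTCA, 1.85% of all). Its core (TGACG), which lies inside the full element and can overlap the antioxidant element, was in 24.6% of all windows and in windows of 5 members, at -201 in BCL2L1, -55 in PMAIP1 and -57 in BMF. The forkhead site GTAAACA was found in BCL2L11 at -223 and in 3.42% of all windows. Some members have several windows, and the shares over all are counted by window. Counted so, the antioxidant and heat shock elements were each in 2 of 15 member windows. The cAMP core was in 5 of 15 and the forkhead site in 1 of 15. A match describes letters only, and binding was not measured.

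Copper changed the transcripts of 6 members in each line. In Ishikawa cells 3 were called higher (BCL2L1, MCL1, PMAIP1) and 3 lower (BBC3, BCL2L11, BMF), by edgeR's quasi-likelihood test at a Benjamini-Hochberg adjusted p under 0.05 over all genes. The background in that comparison was high: 69.1% of 13359 genes tested were called, 33.8% higher and 35.3% lower. In KLE cells BCL2L1, BAK1 and PMAIP1 were called higher and BID, BCL2L11 and BMF lower, where 50.8% of 13031 genes were called, 25.6% higher and 25.2% lower. The count of 6 in 10 was thus near the background in both lines. The median absolute log2 fold change of the members was 0.41 in Ishikawa cells, against 0.42 over all genes, and 0.19 in KLE cells, against 0.20. Both medians were near those of the whole transcriptome. In normalised counts, treated and untreated libraries did not overlap for 6 members in each line, against 72.6% of all genes tested in Ishikawa cells and 56.5% in KLE cells.

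**Figure D1:**
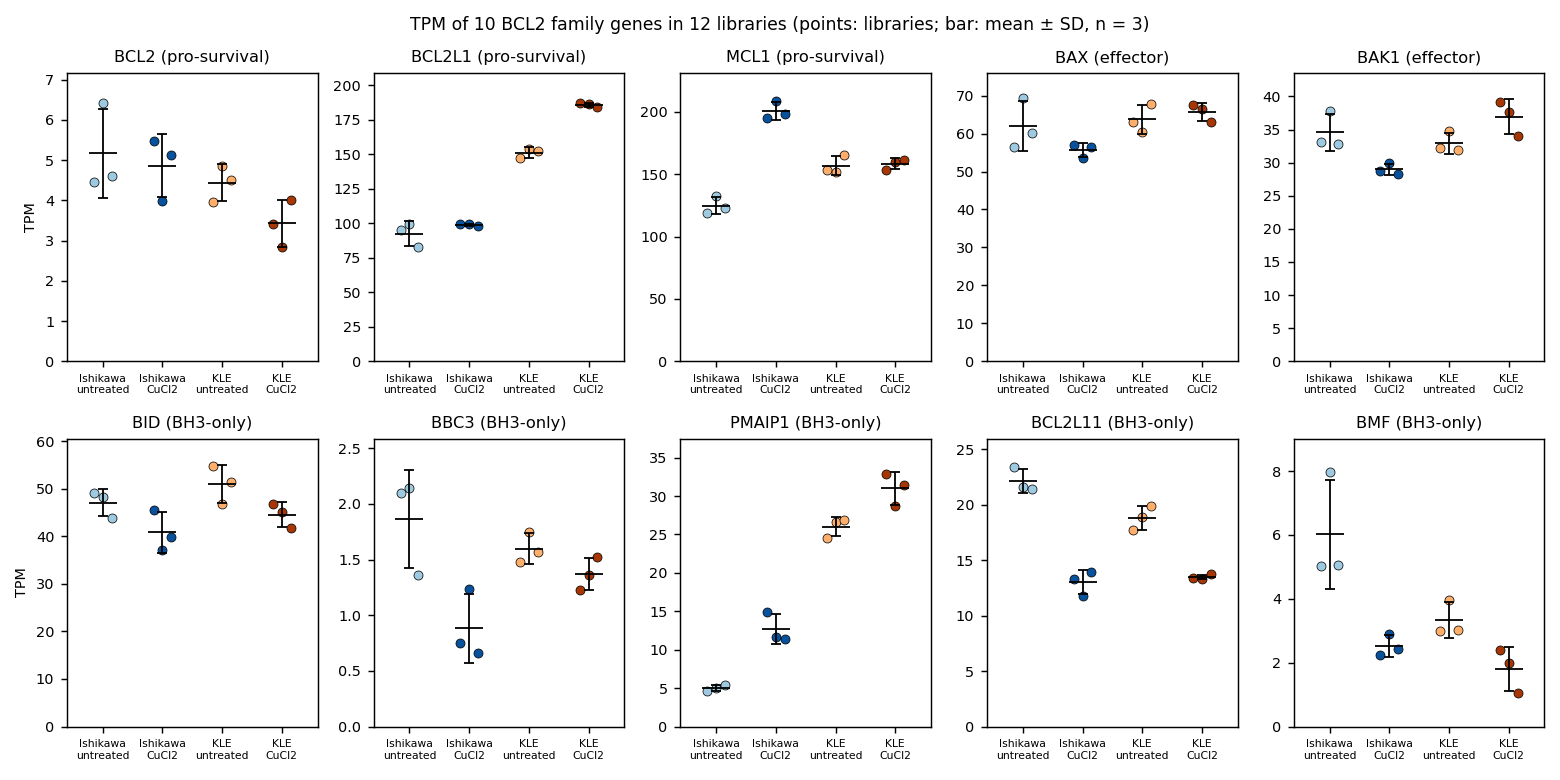
TPM of each member (vertical axes, each from 0) in the 4 groups; points are libraries and bars are mean ± SD of 3. PMAIP1 separates all 4 groups, MCL1 stands apart in copper-treated Ishikawa cells (195 to 209 TPM), and BCL2L11 and BMF lie lower with copper in both lines.

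Levels ranged from 0.66 TPM (BBC3) to 209 TPM (MCL1). In untreated Ishikawa cells the order was MCL1 (125 ± 7.13 TPM), BCL2L1 (92.5 ± 8.87), BAX (62.0 ± 6.55), BID (47.1 ± 2.88), BAK1 (34.6 ± 2.86), BCL2L11 (22.1 ± 1.08), BMF (6.02 ± 1.70), BCL2 (5.17 ± 1.10), PMAIP1 (4.99 ± 0.38) and BBC3 (1.86 ± 0.44; mean ± SD, n = 3 each). BMF overlapped BCL2 in range and BCL2 overlapped PMAIP1, and all other neighbours were apart. BCL2, the founding member, was thus a minor pro-survival transcript in these cells, well below MCL1 and BCL2L1. In KLE cells PMAIP1 stood sixth, above BCL2L11, with and without copper. MCL1 and BCL2L1 overlapped in untreated KLE cells, and with copper BCL2L1 (186 ± 1.54 TPM) stood above MCL1 (158 ± 4.38 TPM, n = 3 each). BBC3 was the lowest of the 10 in all 4 groups, though in treated KLE cells its range overlapped that of BMF.

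MCL1 encodes a labile pro-survival protein (chr1:150574551-150579738, minus strand, GRCh38). Its untreated Ishikawa libraries held 119, 133 and 123 TPM and the treated ones 195, 209 and 198 TPM. The KLE libraries held 153, 152 and 166 TPM untreated and 153, 160 and 162 TPM with copper. The treated Ishikawa libraries were the highest of all 12 and did not overlap any other group, whereas treated and untreated KLE libraries overlapped. In Ishikawa cells MCL1 rose by a log2 fold change of 0.85 ± 0.05 (SE), or 1.81-fold (edgeR adjusted p = 4.64e-10), in 3 of 3 treated libraries. In KLE cells the log2 fold change was 0.04 ± 0.04 (edgeR adjusted p = 0.379). The responses differed by -0.76 ± 0.06 in log2 (KLE minus Ishikawa, edgeR adjusted p = 7.67e-10), a comparison in which 45.4% of 13663 genes were called. Over all alternatives for this difference the log2 value ran from -0.83 to -0.67.

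BCL2L1 encodes BCL-XL, or by a splice choice the pro-apoptotic BCL-XS, and the gene counts do not separate them (chr20:31664452-31723989, minus strand). Untreated Ishikawa libraries held 95.2, 99.7 and 82.6 TPM and treated ones 99.4, 99.3 and 97.8 TPM, which overlap. KLE libraries held 147, 154 and 153 TPM untreated and 187, 187 and 184 TPM with copper, with a clear gap between them. In CPM (counts scaled to library size, here with TMM factors), treated Ishikawa libraries (130.3, 127 and 125) lay above untreated ones (114, 117 and 97.0). BCL2L1 rose by 0.36 ± 0.03 in log2 in KLE cells (edgeR adjusted p = 1.5e-11) and by 0.27 ± 0.07 in Ishikawa cells (edgeR adjusted p = 0.00206). The Ishikawa call depended on the scaling: it was 0.16 (adjusted p = 0.0381) with upper-quartile factors, 0.12 (adjusted p = 0.13) with library totals and 0.10 (adjusted p = 0.258) in limma on log2(TPM + 1). The responses differed by 0.145 ± 0.07 (KLE minus Ishikawa, edgeR adjusted p = 0.111). This difference passed the threshold with library totals (0.21, adjusted p = 0.0239) and without the third untreated Ishikawa library (0.23, adjusted p = 0.002). Up to 43.0% of the exonic bases of BCL2L1 also belong to an exon of the antisense RNA ABALON, and whether counting used strand is not given in the sources used here, so reads of the pair cannot be told apart.

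BCL2 itself was low (chr18:63123346-63320128, minus strand). Untreated Ishikawa libraries held 4.47, 6.43 and 4.60 TPM and treated ones 5.49, 3.99 and 5.12 TPM, and KLE libraries held 3.95, 4.86 and 4.51 TPM untreated and 3.42, 2.85 and 4.02 TPM with copper. Groups overlapped in both lines. The log2 fold change was -0.08 ± 0.10 in Ishikawa cells (edgeR adjusted p = 0.492) and -0.09 ± 0.11 in KLE cells (edgeR adjusted p = 0.541). With library totals the Ishikawa value was -0.23 (adjusted p = 0.0461) and passed the threshold as lower.

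Neither effector was called in Ishikawa cells, and 1 of the 2 was called in KLE cells. BAX held 56.5, 69.3 and 60.2 TPM in untreated and 57.0, 53.5 and 56.3 TPM in treated Ishikawa libraries, and 63.0, 60.4 and 67.8 TPM in untreated and 67.5, 66.5 and 63.1 TPM in treated KLE libraries (chr19:48954815-48961798, plus strand). All 4 groups of BAX overlapped with a neighbour in level. Its log2 fold change was -0.03 ± 0.09 in Ishikawa cells (edgeR adjusted p = 0.762) and 0.11 ± 0.07 in KLE cells (edgeR adjusted p = 0.192). BAX was not called under any of the alternatives tried for the copper comparisons, where its log2 value ran from -0.19 to 0.03 in Ishikawa cells and from 0.04 to 0.14 in KLE cells.

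BAK1, the effector held by MCL1 and BCL-XL, held 33.0, 37.9 and 32.8 TPM in untreated and 28.8, 29.9 and 28.3 TPM in treated Ishikawa libraries (chr6:33572547-33580293, minus strand). KLE libraries held 32.2, 34.7 and 31.9 TPM untreated and 39.1, 37.7 and 34.0 TPM with copper. The treated Ishikawa libraries were the lowest of the 12 in TPM, and the third treated KLE library lay within the untreated KLE range. In KLE cells BAK1 rose by 0.20 ± 0.06 in log2 (edgeR adjusted p = 0.00938), and the call was lost without the third untreated library (adjusted p = 0.0673) or the first treated one (adjusted p = 0.0578), and in limma on log2(TPM + 1) (adjusted p = 0.103). In Ishikawa cells the value was -0.07 ± 0.07 (edgeR adjusted p = 0.416), and it passed the threshold as lower with library totals (-0.22, adjusted p = 0.0149) and upper-quartile factors (-0.18, adjusted p = 0.0378) and on log2(TPM + 1) (-0.24, adjusted p = 0.0225). Upper-quartile factors moved the median of all genes in that comparison from -0.01 to -0.13, library totals to -0.17 and log2(TPM + 1) to -0.16. Part of each of these values is thus a shift shared by all genes. The responses of BAK1 differed by 0.33 ± 0.10 in log2 (KLE minus Ishikawa, edgeR adjusted p = 0.00904). Without the third treated Ishikawa library this was 0.26 (adjusted p = 0.0523).

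**Figure D2:**
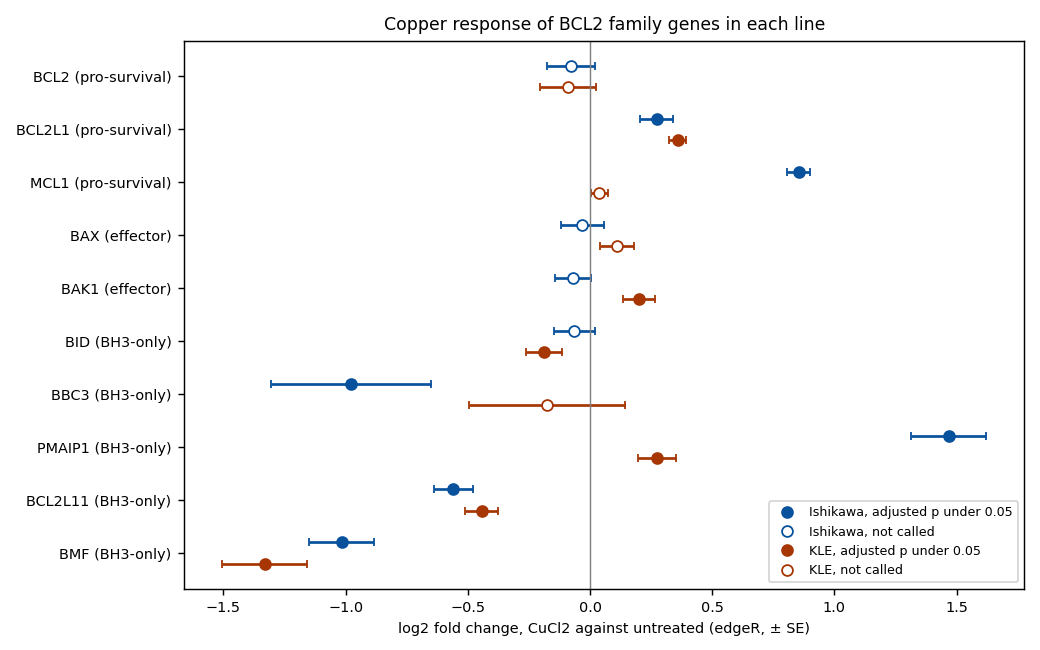
Log2 fold change of each member with CuCl2 (horizontal axis, ± SE from edgeR) in Ishikawa (blue) and KLE cells (brown); filled points passed an adjusted p of 0.05. BCL2L1 and PMAIP1 lie above 0 and BCL2L11 and BMF below 0 in both lines, and MCL1 is apart from 0 only in Ishikawa cells, a difference between lines of -0.76 ± 0.06.

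The BH3-only genes moved in both directions. In each line 1 of the 5 was called higher (PMAIP1) and 3 lower, where 69.1% of all genes were called in Ishikawa cells and 50.8% in KLE cells. BCL2L11 and BMF were called lower in both lines, beside BBC3 in Ishikawa cells and BID in KLE cells.

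PMAIP1, which encodes NOXA, had the largest rise of the 10 in Ishikawa cells (chr18:59899948-59904306, plus strand). Its level was 4.61, 4.98 and 5.37 TPM in untreated Ishikawa libraries and in treated ones 14.9, 11.7 and 11.4 TPM. KLE libraries held 24.6, 26.6 and 26.8 TPM untreated and 32.9, 28.7 and 31.5 TPM with copper. No group overlapped another, and every untreated KLE library stood above every treated Ishikawa library. PMAIP1 rose 2.77-fold in Ishikawa cells (log2 1.47 ± 0.15, edgeR adjusted p = 7.34e-07), where 7.55% of genes tested had a larger absolute change. In KLE cells it rose 1.21-fold (log2 0.28 ± 0.08, edgeR adjusted p = 0.00336). The responses differed by -1.14 ± 0.16 in log2 (edgeR adjusted p = 4.85e-06), with values from -1.28 to -0.94 over all alternatives.

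BCL2L11 encodes BIM, a BH3-only protein that binds all of the pro-survival members (chr2:111119378-111168447, plus strand). In Ishikawa cells untreated libraries held 23.4, 21.6 and 21.4 TPM and treated ones 13.3, 11.8 and 13.9 TPM. KLE libraries held 17.7, 18.9 and 19.9 TPM untreated and 13.4, 13.3 and 13.7 TPM with copper. Every treated library was below every untreated one, and the treated groups of the lines overlapped. BCL2L11 fell by 0.56 ± 0.08 in log2 in Ishikawa cells (edgeR adjusted p = 2.02e-05) and by 0.44 ± 0.07 in KLE cells (edgeR adjusted p = 5.23e-07). The difference between these responses was 0.17 ± 0.10 (edgeR adjusted p = 0.18). Up to 10.9% of its exonic bases are shared with an exon of MIR4435-2HG on the other strand.

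BMF, whose product is released from the cytoskeleton, had the largest fall of the 10 in KLE cells and in Ishikawa cells fell about as much as BBC3 (chr15:40087890-40108892, minus strand). Untreated Ishikawa libraries held 5.02, 7.98 and 5.06 TPM and treated ones 2.23, 2.90 and 2.43 TPM, and KLE libraries held 2.99, 3.97 and 3.01 TPM untreated and 2.38, 1.98 and 1.05 TPM with copper. Treated and untreated libraries did not overlap in either line. BMF fell by 1.02 ± 0.13 in log2 in Ishikawa cells (edgeR adjusted p = 8.55e-06) and by 1.33 ± 0.17 in KLE cells (edgeR adjusted p = 2.19e-08), on 48, 44 and 35 counts in treated KLE libraries against 98 to 122 untreated. These counts lay closer together than the TPM of the same libraries. In KLE cells 3.01% of genes tested had a larger absolute change. The KLE value was -0.65 on log2(TPM + 1) (limma adjusted p = 0.0239) and -0.91 on log2(TPM + 0.1), so it was smaller in TPM than in counts. The log2 ratio of counts to TPM for BMF was taken relative to other genes of each library, and its own mean over the 12 libraries was subtracted. This deviation averaged 0.10 in untreated and -0.32 in treated KLE libraries. The treated values ran from -0.674 to 0.175 and overlapped the untreated ones (-0.0986 to 0.205). BMF had too few counts to be among the well-measured genes for this ratio, and the cause was not tested. The difference between the lines was -0.26 ± 0.20 (edgeR adjusted p = 0.312), and its direction turned in TPM (0.32 on log2(TPM + 1) and 0.29 on log2(TPM + 0.1)). BMF shares up to 5.21% of its exonic bases with an exon of BMF-AS1 on the other strand.

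BBC3 encodes PUMA and was the least abundant member (chr19:47220822-47232766, minus strand). In Ishikawa cells untreated libraries held 2.09, 2.14 and 1.36 TPM and treated ones 0.75, 1.23 and 0.66 TPM. KLE libraries held 1.48, 1.75 and 1.57 TPM untreated and 1.23, 1.36 and 1.52 TPM with copper, and these overlapped. Over all 12 libraries it had 8 to 42 counts. It fell by 0.98 ± 0.33 in log2 in Ishikawa cells (edgeR adjusted p = 0.0153), and the call was lost with DESeq2 (adjusted p = 0.0691) and without the first untreated library (adjusted p = 0.0546), the first treated one (adjusted p = 0.0615) or the third treated one (adjusted p = 0.0658). In KLE cells its log2 fold change was -0.18 ± 0.32 (edgeR adjusted p = 0.677). The difference between lines was 0.86 ± 0.45 (edgeR adjusted p = 0.122), so a different response was not shown.

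BID is cut by caspase-8 and links death receptors to mitochondria (chr22:17734138-17774770, minus strand). Ishikawa libraries without copper held 49.1, 48.4 and 43.8 TPM and treated ones 45.5, 37.1 and 39.8 TPM. KLE libraries held 54.8, 46.9 and 51.3 TPM untreated and 46.8, 45.1 and 41.7 TPM with copper, with a narrow gap between groups. BID fell by 0.19 ± 0.07 in log2 in KLE cells (edgeR adjusted p = 0.0299). That call was lost with DESeq2 (adjusted p = 0.101), on log2(TPM + 1) (adjusted p = 0.0613), in the fit of all 12 libraries (adjusted p = 0.0556) and without the first untreated library (adjusted p = 0.174), the third untreated or the second treated one (adjusted p = 0.0529 each) or the third treated one (adjusted p = 0.13). In Ishikawa cells the value was -0.07 ± 0.08 (edgeR adjusted p = 0.506), and -0.22 (adjusted p = 0.0337) with library totals.

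Across the lines 8 of the 10 members had log2 fold changes of the same sign, against 75.0% of the 12806 genes tested in both lines. The members of opposite sign were BAX, which was called in neither line, and BAK1, which was called in KLE cells only. In the test of the difference between responses 3 of 10 were called (MCL1 and PMAIP1 with a lower value in KLE cells, BAK1 with a higher one), against the background of 45.4% of genes (24.6% higher and 20.8% lower in KLE cells).

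Untreated KLE cells differed from untreated Ishikawa cells in 6 members, against a background of 50.0% of 13663 genes called (24.5% higher and 25.6% lower in KLE cells). The libraries of the lines did not overlap in normalised counts for those 6, against 55.1% of genes. PMAIP1 was 5.28-fold higher in KLE cells (log2 2.40 ± 0.12, edgeR adjusted p = 3.35e-14), and 2.53% of genes tested differed by more. BCL2L1 (log2 0.75 ± 0.05, edgeR adjusted p = 2.33e-11) and MCL1 (0.39 ± 0.04, edgeR adjusted p = 4.95e-08) were higher as well. BMF (-0.80 ± 0.13, edgeR adjusted p = 1.22e-05), BCL2L11 (-0.25 ± 0.07, edgeR adjusted p = 0.00435) and BCL2 (-0.31 ± 0.11, edgeR adjusted p = 0.0191) were lower in KLE cells. The BCL2 call was lost without the second untreated Ishikawa library (-0.27, adjusted p = 0.0581), without the third untreated KLE library (-0.22, adjusted p = 0.132) and on log2(TPM + 1) (-0.17, adjusted p = 0.395). BAX (0.07 ± 0.08), BAK1 (-0.01 ± 0.07), BID (0.13 ± 0.08) and BBC3 (-0.17 ± 0.29) were not called. The untreated libraries of each line serve both here and in the copper comparisons. Without the second untreated Ishikawa library, the one that stood apart, the 6 calls of the copper comparison in Ishikawa cells and the 3 of the response difference were still made, with MCL1 at 0.87, PMAIP1 at 1.46, BCL2L1 at 0.32, BCL2L11 at -0.62, BMF at -0.90 and BBC3 at -0.93 in log2 in Ishikawa cells.

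Levels of partners were set against each other within each library, as ratios of TPM that were chosen after the values were seen. PMAIP1 per 100 TPM of MCL1, its binding partner, was 3.88, 3.76 and 4.36 in untreated and 7.66, 5.60 and 5.74 in treated Ishikawa cells. In KLE cells it was 16.0, 17.5 and 16.2 untreated and 21.5, 17.9 and 19.5 with copper. The groups did not overlap in either line, and even the treated Ishikawa cells stayed below the untreated KLE cells. BCL2L11 per 100 TPM of BCL2L1 was 24.5, 21.7 and 26.0 in untreated and 13.3, 11.9 and 14.3 in treated Ishikawa cells, and 12.0, 12.3 and 13.0 in untreated and 7.18, 7.13 and 7.45 in treated KLE cells. This ratio was lower with copper in all treated libraries of both lines. The ratio of MCL1 to BCL2L1 went opposite ways: it was 1.36 ± 0.12 untreated and 2.03 ± 0.07 treated in Ishikawa cells, and 1.04 ± 0.05 and 0.85 ± 0.03 in KLE cells (mean ± SD, n = 3). The ratio of BAX to BAK1 was 1.79 ± 0.07 and 1.92 ± 0.11 in Ishikawa cells and 1.94 ± 0.19 and 1.78 ± 0.07 in KLE cells, with overlapping groups. With 3 libraries against 3, a two-sided exact permutation test cannot go below p = 0.1. The first 3 ratios gave that value in both lines and between the untreated lines (adjusted p = 0.133 over 12 tests), and the ratio of BAX to BAK1 gave an exact p = 0.3 in each.

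**Figure D3:**
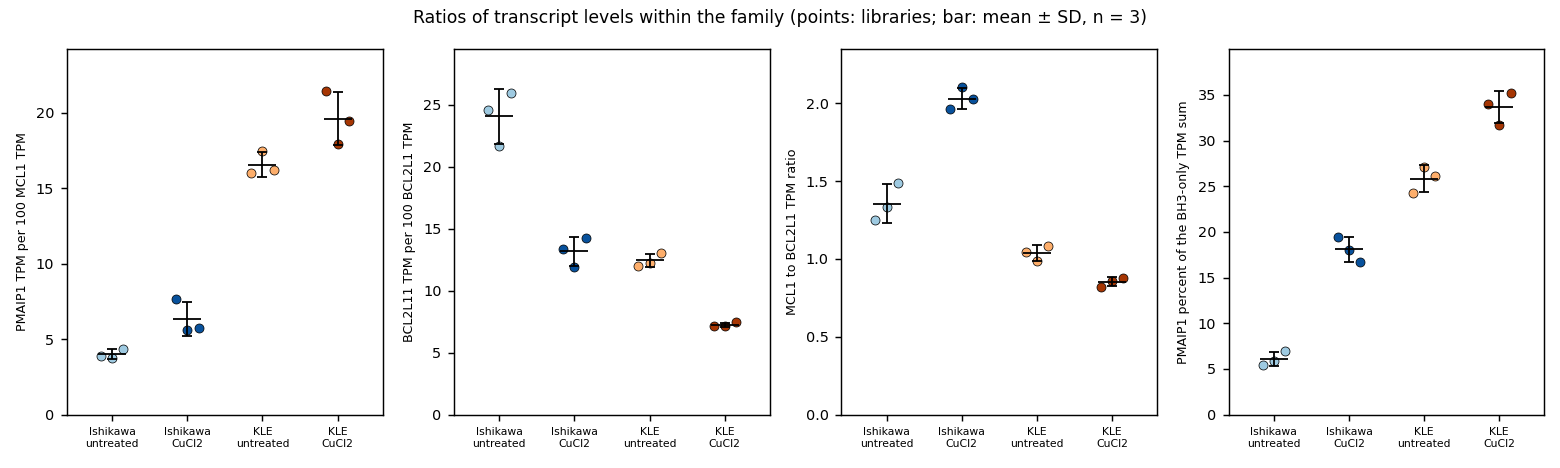
TPM ratios within each library (vertical axes, each from 0) in the 4 groups; points are libraries and bars are mean ± SD of 3. PMAIP1 relative to MCL1 is higher in each group than in the one plotted to its left, and the MCL1 to BCL2L1 ratio is above 1.9 only in copper-treated Ishikawa cells.

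By class, pro-survival transcripts made up 55.5 ± 0.21% of the summed TPM of the 10 genes in untreated and 66.3 ± 1.48% in treated Ishikawa cells, and 61.3 ± 0.48% and 64.1 ± 1.21% in KLE cells (mean ± SD, n = 3). BH3-only transcripts made up 20.5 ± 0.89% and 15.2 ± 1.28% in Ishikawa cells and 19.8 ± 0.44% and 17.0 ± 0.60% in KLE cells. The effectors made up 24.1 ± 1.07% and 18.4 ± 0.28% in Ishikawa cells and 19.0 ± 0.07% and 18.9 ± 0.72% in KLE cells. The shares are parts of a whole, so a larger pro-survival share lowers the others. As sums in Ishikawa cells, pro-survival TPM went from 222.5 ± 14.7 to 304.4 ± 6.6 with copper. Effector TPM went from 96.6 ± 9.3 to 84.6 ± 1.2 there, and BH3-only TPM from 82.1 ± 4.4 to 69.9 ± 6.2. The median change of all genes in Ishikawa cells was -0.16 on log2(TPM + 1), against -0.01 in edgeR. These sums thus include a shift shared by all genes, and edgeR called neither effector there. In KLE cells pro-survival TPM went from 312.7 ± 9.2 to 347.9 ± 3.5. Effector TPM went from 96.7 ± 2.7 to 102.6 ± 5.0 in that line, and BH3-only TPM from 100.7 ± 2.4 to 92.2 ± 4.0. PMAIP1 made up 6.10 ± 0.78% of the BH3-only sum in untreated and 18.1 ± 1.38% in treated Ishikawa cells, and 25.8 ± 1.47% and 33.6 ± 1.76% in KLE cells. BID was the largest part of that sum in all groups, between 46.6 and 59.4% of it. These shares are descriptions of transcripts per length and say nothing of protein.

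Among the genes around the 10 members, the 13 other family genes came first. Of the 10 tested in Ishikawa cells 4 were called higher and 3 lower, and of the 9 tested in KLE cells 6 were called higher and none lower. The shares over all genes tested were 33.8% higher and 35.3% lower in Ishikawa cells and 25.6% and 25.2% in KLE cells, and 7 of 10 is near the 69.1% called there in either direction. HRK, a BH3-only gene best known from neurons, had 5, 9 and 4 counts in untreated and 44, 49 and 44 counts in treated Ishikawa libraries (log2 3.26 ± 0.32, edgeR adjusted p = 3.47e-07), and 1 to 8 counts in KLE libraries, where it was not tested. BIK, a BH3-only gene of the endoplasmic reticulum, rose by 1.73 ± 0.24 in log2 in Ishikawa cells (edgeR adjusted p = 1.29e-05), and its value in KLE cells was 0.47 ± 0.24 (edgeR adjusted p = 0.0998). BNIP3, a mitophagy receptor induced by hypoxia, went opposite ways. Its untreated Ishikawa libraries held 66.2, 72.7 and 64.5 TPM and the treated ones 18.2, 18.8 and 18.9 TPM, against 49.1, 47.0 and 51.4 TPM untreated and 53.9, 61.2 and 64.3 TPM with copper in KLE cells. BNIP3 fell by 1.64 ± 0.08 in log2 in Ishikawa cells (edgeR adjusted p = 1.27e-10) and rose by 0.36 ± 0.07 in KLE cells (edgeR adjusted p = 1.43e-05), a difference of 2.05 ± 0.10 (edgeR adjusted p = 7.82e-13). The pro-survival BCL2L2 (BCL-W) rose in both lines, by 0.70 ± 0.07 (edgeR adjusted p = 3.1e-07) and 0.62 ± 0.05 (edgeR adjusted p = 1.33e-12), and BCL2L12 rose by 0.36 ± 0.09 and 0.46 ± 0.07.

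Downstream of the mitochondria, 8 of 19 genes were called higher and 7 lower in Ishikawa cells, and 6 higher and 1 lower in KLE cells, against 69.1% and 50.8% of all genes called in either direction. BIRC3, an inhibitor of apoptosis protein, rose by 1.21 ± 0.14 in log2 and CASP9, the initiator caspase of the apoptosome, fell by 0.95 ± 0.19 in Ishikawa cells (edgeR adjusted p = 1.73e-06 and 0.000408). APAF1, the apoptosome scaffold, fell in both lines, by 0.31 ± 0.05 in Ishikawa (edgeR adjusted p = 0.000153) and 0.37 ± 0.06 in KLE cells (edgeR adjusted p = 1.74e-06). Of the mitochondrial channels, VDAC2 rose by 0.57 ± 0.04 and 0.22 ± 0.04 and VDAC3 by 0.41 ± 0.05 and 0.24 ± 0.04 in the lines. VDAC1 was lower in Ishikawa cells (log2 -0.29 ± 0.04, edgeR adjusted p = 4.28e-05), and its KLE value was 0.05 ± 0.03 (edgeR adjusted p = 0.207). The median log2 fold change of these genes was 0.04 in each line.

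In the death receptor pathway 5 of 10 genes were called higher and 3 lower in Ishikawa cells, and 3 higher and 1 lower in KLE cells, where 69.1% and 50.8% of all genes were called. CASP8, which cleaves BID, rose in both lines, by 0.78 ± 0.10 (edgeR adjusted p = 7.81e-06) and 0.26 ± 0.07 (edgeR adjusted p = 0.00175). FAS, a death receptor, rose by 0.77 ± 0.07 and the adaptor TRADD fell by 0.86 ± 0.20 in Ishikawa cells (edgeR adjusted p = 1.04e-07 and 0.00147). The TRAIL receptor TNFRSF10A rose in both lines, by 0.68 ± 0.08 in Ishikawa and 0.59 ± 0.05 in KLE cells (edgeR adjusted p = 2.41e-06 and 2.57e-12). CASP10 fell by 0.48 ± 0.08 in KLE cells (edgeR adjusted p = 7.71e-06), and its Ishikawa value was 0.10 ± 0.09 (edgeR adjusted p = 0.33).

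Of 12 transcription factors that are known to act on family genes, 7 were called higher and 3 lower in Ishikawa cells, and 3 higher and 3 lower of 11 tested in KLE cells, beside 69.1% and 50.8% of all genes. ATF3, a stress-induced factor, rose from 24.1 ± 2.23 to 261 ± 17.6 TPM in Ishikawa cells (log2 3.48 ± 0.07, edgeR adjusted p = 1.2e-14) and from 44.6 ± 2.60 to 75.4 ± 8.82 TPM in KLE cells (log2 0.84 ± 0.07, edgeR adjusted p = 7.85e-12; mean ± SD, n = 3). DDIT3, which encodes CHOP, rose by 1.27 ± 0.09 in Ishikawa cells (edgeR adjusted p = 6.47e-09), and its KLE value was 0.15 ± 0.11 (edgeR adjusted p = 0.263). MYC fell by 1.67 ± 0.05 and 0.48 ± 0.05 in the lines (edgeR adjusted p = 2.32e-12 and 4.31e-11).

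Among 8 genes for ubiquitination of MCL1 and NOXA proteins, 6 were called higher and none lower in Ishikawa cells, and 3 higher and none lower in KLE cells, against 33.8% and 25.6% of all genes called higher. FBXW7, a ligase subunit that targets MCL1, rose by 0.73 ± 0.07 in Ishikawa cells (edgeR adjusted p = 2.36e-07), and its KLE value was 0.06 ± 0.07 (edgeR adjusted p = 0.519). RNF7, a ring subunit of cullin ligases, rose by 0.64 ± 0.07 and 0.27 ± 0.06 in the lines, and USP9X, a deubiquitinase of MCL1, by 0.39 ± 0.05 and 0.17 ± 0.03. MARCHF5, a mitochondrial ligase, rose by 0.35 ± 0.06 in Ishikawa and 0.33 ± 0.05 in KLE cells (edgeR adjusted p = 0.000116 and 1.65e-06). The median log2 fold changes were 0.365 and 0.123 for this list in Ishikawa and KLE cells, 0.31 and -0.01 for the transcription factors, 0.20 and 0.09 for the death receptor pathway and 0.04 and 0.265 for the other family genes, against -0.01 and 0.00 over all genes tested.

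**Figure D4:**
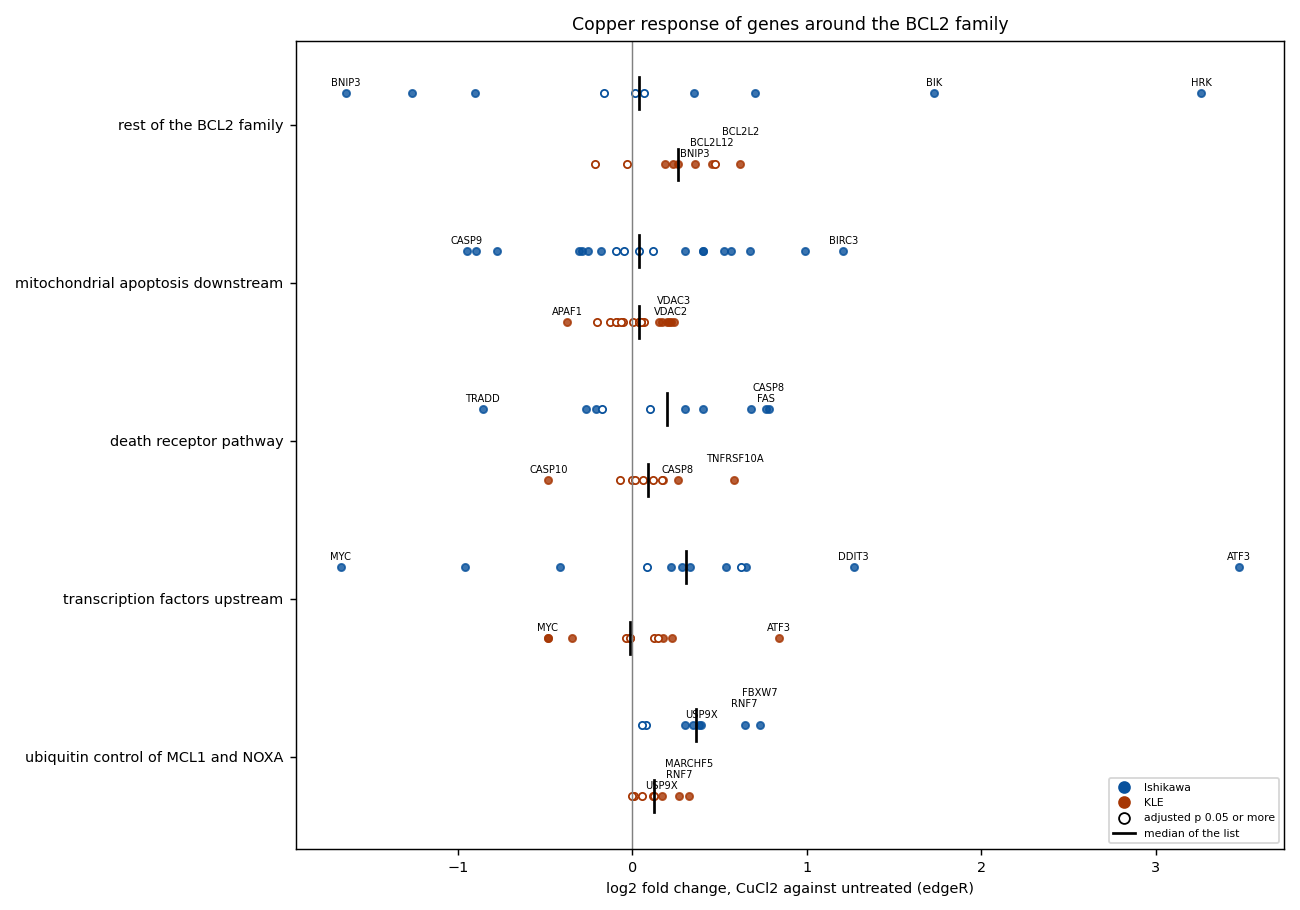
Log2 fold change with CuCl2 (horizontal axis, edgeR) of genes in 5 lists around the members, in Ishikawa (blue) and KLE cells (brown); open points did not pass an adjusted p of 0.05 and black bars are list medians. HRK (3.26) and ATF3 (3.48) lie farthest right in Ishikawa cells, and BNIP3 lies on opposite sides of 0 in the 2 lines.

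For the member of each class whose log2 CPM varied most over the 12 libraries, the genes with the most similar profile were listed by Pearson correlation over those 12 libraries and 13451 genes. PMAIP1 was followed by LAMB3 (0.992), COTL1 (0.991) and ZNF114 (0.99), and BCL2L1 by CLIC1 (0.993), AP2M1 (0.993) and STX1A (0.992). BAK1 was followed by RBM44 (0.94), EIF4G1 (0.939) and SKIC2 (0.917). These values are descriptions over 4 groups of 3 libraries, in which the differences between groups set most of the variation.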

How the data were processed

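Per the labels' protocols, mRNA was enriched with oligo(dT) beads and sequenced on an Illumina platform. The submitters' processing notes list HISAT2 2.1.0 and Bowtie2 2.2.8, fastp 0.18.0, RSEM, R 4.2.2, DESeq2 and the build GRCh38.p14, without their roles. Strandedness and annotation release are not given in sources used here. The authors deposited expected counts, whole counts per line (used for all tests) and TPM (used for levels); the tables with FPKM in their names contain TPM, per the file headers. Counts were tested with edgeR 4.0.16 in R 4.3.3 (TMM factors, filterByExpr, robust quasi-likelihood test, two-sided, Benjamini-Hochberg adjusted over all genes). Each copper comparison used the 6 libraries of its line, and the other 2 contrasts came from a fit of all 12. SE is the absolute log2 fold change over the square root of F. The scripts were tested on simulated data. Alternatives were other scaling factors and count filters, DESeq2 1.42.0, limma 3.58.1 (voom, or log2 TPM with a pseudocount of 1 or 0.1), a replicate block, and leaving out each library. Gene coordinates are from GENCODE release 29 (GRCh38). All 10 members are named; of each pathway list, up to 3 called genes with the largest change in either line are named; some genes this rule takes are not reported here. The members and lists were chosen with earlier results of these data known, so they are no independent support.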

Additional observations from a re-analysis of the deposited data

Results flagged for a closer look

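The copper responses of 3 members differed between the lines in a test of the difference itself (KLE minus Ishikawa, log2, edgeR adjusted p). In that test 45.4% of 13663 genes were called, so a called difference was common among all genes and not particular to these members. MCL1 differed by -0.758 (adjusted p = 7.67e-10): it rose in 3 of 3 treated Ishikawa libraries, and the KLE groups overlapped. PMAIP1 differed by -1.14 (adjusted p = 4.85e-06), with a rise in both lines that was larger in Ishikawa cells, from a lower untreated level. BAK1 differed by 0.327 (adjusted p = 0.00904), the smallest of the 3 and the one that missed the threshold without the third treated Ishikawa library (0.26, adjusted p = 0.0523).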

How the results depend on the processing

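The number of members called kept within 1.5 times of the reported count under all alternatives run. Leaving out 1 library gave 5 to 6 calls in Ishikawa cells, 4 to 6 in KLE cells, 2 to 4 for the response difference and 5 to 6 between the untreated lines. The other alternatives gave 5 to 8, 4 to 6, 3 to 4 and 5 to 6. No called member changed sign. The calls of MCL1, PMAIP1, BCL2L11 and BMF in Ishikawa cells and of BCL2L1, PMAIP1, BCL2L11 and BMF in KLE cells held in all of them. Libraries were also correlated after the group mean of each gene was subtracted from its log2 CPM. These are correlations of deviations within groups and not of expression levels. Same-numbered treated and untreated Ishikawa libraries correlated in this way at 0.0381, 0.155 and 0.0721, and different-numbered ones at -0.143 to 0.0706. Each untreated Ishikawa library correlated best with its same-numbered treated library, the third only narrowly (0.0721 against 0.0706). The first treated one correlated best with the third untreated one (0.0706 against 0.0381). In KLE cells the deviations of same-numbered libraries correlated at -0.0614, -0.0483 and -0.0811, below those of all different-numbered ones (-0.00649 to 0.0642). Whether replicate numbers pair the Ishikawa libraries was not tested. With a replicate block, member calls were again 6, 6, 3 and 6, and calls over all genes 9355, 6193, 6144 and 6775, against 9228, 6617, 6206 and 6838 without it. Scaling set the balance of all calls in Ishikawa cells: 4514 higher and 4714 lower with TMM, 3370 and 6068 with library totals, 3661 and 5722 when scaled to upper quartiles. In KLE cells 3330 and 3287 became 2685 and 3943 when scaled to upper quartiles. For the response difference 3358 and 2848 became 4151 and 2349 with library totals. They became 2581 and 3000 with DESeq2, and 2596 and 3122 without the first treated Ishikawa library. Which direction had more calls in the response difference thus depended on the processing. BBC3 had 8 to 42 counts per library, the fewest of the members; what part depth has in its lost calls was not tested.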
